A study of Mus musculus with 12 samples.

Results

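The type I interferon pathway, through which cells answer viral nucleic acid, was examined for DNA methylation in mouse kidney cells treated with a demethylating drug. The genes were 41 named members on the GENCODE M1 annotation of the mm9 genome, out of 22272 protein coding genes. They comprised 5 sensors of foreign nucleic acid, 13 parts of the signal relay and 23 interferon-induced genes. Of the induced genes, 17 were grouped as antiviral and 6 as serving antigen presentation. The antiviral group is a label for the set and does not mean that each gene acts against viruses itself. For each gene the promoter ran from 2000 bp upstream to 500 bp downstream of the gene start, and the body was the rest of the gene. The methylation level of a part was the share of reads that were methylated, summed over CpGs with 5 or more reads, in libraries with 3 or more such CpGs in the part. Promoters of 27 members and bodies of 30 members could be tested in the 10 libraries used, both parts of 22, and neither part of 6.

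Reduced representation bisulfite sequencing (RRBS), which reads the methylation of CpGs near sites cut by the enzyme MspI, had been run on PKD1-Het cells. These are proximal renal tubule epithelial cells with 1 disrupted copy of Pkd1, the main gene of autosomal dominant polycystic kidney disease, isolated from Pkd1 flox/-:TSLargeT mice, so that every group, PBS included, carried the same alleles and the large T transgene. Cells were treated for 24 h with 50 µM free Aza (5-aza-2′-deoxycytidine, an inhibitor of DNA methyltransferases), with F-MTAza (the same dose of Aza plus metformin at 300 µM and tolvaptan at 10 µM, all free in solution), with NP-MTAza (these 3 drugs at these doses in micelles) or with PBS, with 3 libraries each. No library came from cells given empty micelles, or metformin and tolvaptan without Aza, so what the micelle or the other 2 drugs contributed cannot be told apart from Aza in the comparisons with PBS. Nothing in the labels says that the replicates were separate cultures, so the p-values measure the spread between libraries, which may be technical.

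Of the 12 libraries, Aza replicates 1 and 2 stood apart from the other 10 and were left out. Over 10127 promoters, the levels of the 10 libraries correlated with each other at r between 0.879 and 0.967, whereas Aza replicate 1 correlated with them at -0.00706 to 0.00276 and Aza replicate 2 at -0.0168 to -0.00667. Aza alone was therefore represented by replicate 3, which was assumed to vary like the other groups. The libraries held between 25336747 and 65817118 reads on listed CpGs, with a median of 7 to 9 reads per CpG. Over all reads the level was 44.9% in Aza replicate 3, 46.4% to 47.8% in F-MTAza, 44.4% to 45.5% in NP-MTAza and 65.6% to 71.2% in PBS. Of the proximal tubule markers, the promoter of Hnf4a was at 38.0% in F-MTAza, 48.4% in NP-MTAza and 86.8% in PBS, no leukocyte marker promoter was covered well enough to test, and RNA was not analysed here, so that the cell type was not checked by expression.

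The members act in sequence. RNA or DNA in the wrong place is bound by sensors such as RIG-I and MDA5, which signal through the adaptor MAVS and the kinase TBK1 to the transcription factors IRF3 and IRF7. Interferon is then made and secreted, binds the receptor IFNAR, and activates a complex with STAT2 and IRF9 that binds interferon-stimulated response elements in the promoters of the induced genes. In cancer cells, drugs that remove DNA methylation are known to wake endogenous retroviruses, whose double-stranded RNA is read by these sensors, a state called viral mimicry.

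The response element holds the letters GAAA, then any 2 bases, then GAAA again. On either strand, read as given or as the reverse complement, these letters occurred in the promoter windows of 25 of the 41 members (61.0%) and in 29.2% of the windows of all 22272 genes. Overlapping matches were counted. In the 200 bases upstream of the gene start, Isg15 (a ubiquitin-like modifier), Zbp1, Usp18, Bst2 and Oas2 each held at least 1 match, and these stretches are shown because methylation in and beside them was read, or could not be read, in the libraries described below. Sequences are from mm9, on the strand of the gene, with the matched letters in capitals.
Isg15, chr4:155574928-155575127, minus strand: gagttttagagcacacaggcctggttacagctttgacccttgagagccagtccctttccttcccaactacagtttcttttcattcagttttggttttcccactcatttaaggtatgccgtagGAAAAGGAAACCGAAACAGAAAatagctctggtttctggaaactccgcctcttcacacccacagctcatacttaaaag
Zbp1, chr2:173044425-173044624, minus strand: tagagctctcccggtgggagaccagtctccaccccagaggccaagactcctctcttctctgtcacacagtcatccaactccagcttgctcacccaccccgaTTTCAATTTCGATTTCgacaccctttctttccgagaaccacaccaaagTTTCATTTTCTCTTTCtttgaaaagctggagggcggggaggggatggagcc
Usp18, chr6:121195724-121195923, plus strand: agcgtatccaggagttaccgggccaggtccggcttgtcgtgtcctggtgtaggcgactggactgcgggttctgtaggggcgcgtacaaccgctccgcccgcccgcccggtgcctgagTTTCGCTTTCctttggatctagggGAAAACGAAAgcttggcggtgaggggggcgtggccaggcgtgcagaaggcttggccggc
Bst2, chr8:74061337-74061536, minus strand: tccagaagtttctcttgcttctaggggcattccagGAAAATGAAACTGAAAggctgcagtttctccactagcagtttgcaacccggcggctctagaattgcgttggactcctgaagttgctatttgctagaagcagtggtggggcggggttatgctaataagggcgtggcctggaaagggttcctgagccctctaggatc
Oas2, chr5:121199863-121200062, minus strand: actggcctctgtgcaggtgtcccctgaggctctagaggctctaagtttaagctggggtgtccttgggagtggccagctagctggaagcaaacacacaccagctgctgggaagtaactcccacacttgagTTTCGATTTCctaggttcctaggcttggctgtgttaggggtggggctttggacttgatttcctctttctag

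These stretches differ in how many CpGs lie in and beside the matches. Usp18, which encodes a protease that removes ISG15, held 13 CpGs that any of the 10 libraries had read within 50 bp of a match, 2 of them inside one. Their summed level was 0.562% in F-MTAza and 1.72% in PBS, and it was 0 in Aza replicate 3 and in NP-MTAza, where 80 and 117 reads allow up to 3.75% and 2.56%. Bst2 (tetherin, which holds virus particles on the cell surface) had 2 such CpGs, at 0 of 31 reads in F-MTAza, 0 of 53 in NP-MTAza and 0.971% in PBS. Zbp1, a sensor of left-handed nucleic acid, had 5 such CpGs, 1 inside a match, at 1.23% in Aza replicate 3, 9.26% in F-MTAza, 6.06% in NP-MTAza and 17.8% in PBS. In Isg15 and Oas2 no CpG within 50 bp of a match was read. Over all 25 members with the letters, 18 had such a CpG, 16 of these had reads in PBS, and 12 of the 16 were under 10% methylated in PBS already. Tap1 and Psmb9, both among the 12, had the same read totals in each treated group and are not separate counts. B2m and Eif2ak2 were at 0 of 7 and 0 of 22 reads in PBS, which allow up to 42.9% and 13.6%. No share over all genes is given.

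Coverage set which members could be described. RRBS favours windows with many CpGs, and the 27 tested member promoters held a median of 71 CG and 7 CCGG (the MspI site), against 24 CG and 2 CCGG in the 14 that were not tested and 58 CG and 6 CCGG over all genes. The 11640 tested promoters of all genes held a median of 84 CG and 9 CCGG, more than the tested members. Promoters were tested for 65.9% of the members and for 52.3% of all genes. The 14 untested promoters were those of Irf7, Ifnar2, Isg15, Ifit1, Ifit3, Oas1a, Oas3, Oasl2, Mx2, Ifi44, Rsad2, Eif2ak2, Tap2 and Nlrc5, of which 10 are antiviral induced genes. The 11 untested bodies were those of Zbp1, Irf7, Ifit1, Oas1a, Mx2, Bst2, Ifi44, Rsad2, Cxcl10, Psmb8 and B2m. The promoter windows of 14 members, 11 of them tested, also overlapped another gene, such as Kat2a at Dhx58, Apof at Stat2, Rnf31 at Irf9 and Bcl2l12 at Irf3, and those of Tap1 and Psmb9 overlapped each other's genes, so their CpGs are not theirs alone.

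Whether treatment lowered the methylation of member promoters was tested first. A promoter was called where the adjusted p (limma, Benjamini-Hochberg over all genes) was under 0.05 and the change was 10 points or more. F-MTAza was lower than PBS at 7 of the 27 tested promoters, those of the sensors Dhx58 and Zbp1, the signal parts Irf5, Irf9 and Ifnar1, and the induced genes Oas2 and Usp18. This was 25.9% of the members tested, against 23% of all 11640 promoters tested. NP-MTAza was lower at 4, those of Dhx58, Irf9, Stat2 and Oas2, which was 14.8% against 25% of all promoters. Aza replicate 3 was lower at 3, those of Dhx58, Irf9 and Oas2, which was 11.1% against 11.2%. None of the 27 was called higher in F-MTAza, NP-MTAza or Aza replicate 3, as were 0.0773%, 0.0172% and 0.0344% of all promoters. The members' shares were near or under those of all genes. The 7 calls in F-MTAza fell to 3 without PBS replicate 1 or PBS replicate 2 and to 4 without F-MTAza replicate 1, and the 4 in NP-MTAza became 6 without PBS replicate 3. Median differences over the members were -4.46 points in F-MTAza, -4.10 in NP-MTAza and -7.95 in Aza replicate 3, against -5.12, -5.75 and -6.10 points over all promoters.

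**Figure D1:**
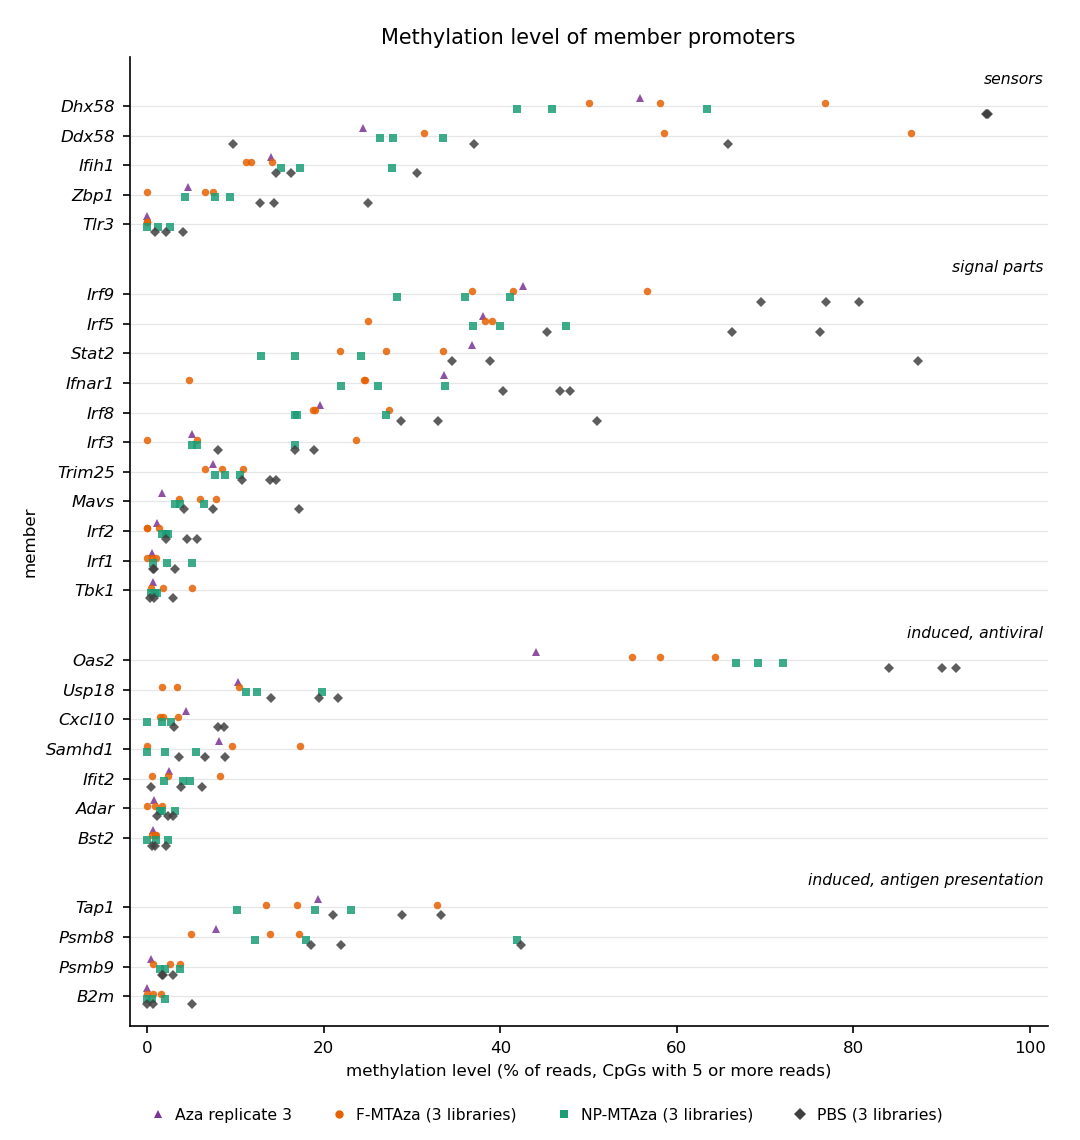
Methylation level (percent of reads) of each tested member promoter in the 10 libraries, grouped by role, with 1 point per library (triangle Aza replicate 3, circles F-MTAza, squares NP-MTAza, diamonds PBS). Dhx58, Irf9 and Oas2 sit between 28.3% and 76.8% in treated libraries and between 69.5% and 95.2% in PBS, while promoters such as Tbk1 and Irf1 lie at or under 5.11% in every library.

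Among the sensors, Dhx58 had the largest difference. It encodes LGP2, a helicase that modulates signalling by RIG-I and MDA5, and its promoter (chr11:100565085-100567585, minus strand) was at 55.8% in Aza replicate 3 (95% Wilson interval 49.0 to 62.4), at 50.0%, 58.1% and 76.8% in F-MTAza and at 45.8%, 63.4% and 41.8% in NP-MTAza, against 95%, 95.2% and 95.2% in PBS. The PBS libraries stood above all 7 treated ones. The promoter fell by 33.5 points in F-MTAza (SE 7.72, adjusted p = 0.00405, limma), by 44.8 points in NP-MTAza (SE 7.72, adjusted p = 0.00138) and by 39.3 points in Aza replicate 3 (SE 10.9, adjusted p = 0.0206). The last call was lost on the percent scale (adjusted p = 0.0621) and with the replicate number as a block (adjusted p = 0.0546). No CpG of this window was read in all 10 libraries. Counting only CpGs read both in the summed treated and in the summed PBS libraries, each equally, 17 CpGs averaged 49.4% in NP-MTAza and 92.5% in PBS, and all 17 were lower in NP-MTAza. Of the 49 CG of the window, 37 lie inside Kat2a, a histone acetyltransferase gene.

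Zbp1 began lower. Its promoter (chr2:173043924-173046424, minus strand) was at 4.57% in Aza replicate 3, at 0 of 46 reads (which allows up to 6.52%), 7.5% and 6.56% in F-MTAza and at 7.65%, 9.32% and 4.25% in NP-MTAza, against 12.8%, 25.0% and 14.3% in PBS. The treated and PBS libraries did not overlap, but only 6 to 11 CpGs were read. It fell by 12.7 points in F-MTAza (SE 3.63, adjusted p = 0.0430), a call that was lost without any 1 of the PBS libraries, the NP-MTAza libraries or F-MTAza replicate 1, where the difference ranged from -8.89 to -15.0 points. The difference in NP-MTAza was -10.3 points (adjusted p = 0.165).

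The remaining 3 sensors were not called. Ddx58 (RIG-I) was at 24.4% in Aza replicate 3, at 86.5%, 31.3% and 58.6% in F-MTAza and at 27.9%, 33.5% and 26.3% in NP-MTAza, against 37.0%, 65.7% and 9.66% in PBS. The groups overlapped throughout, and no CpG of this window was shared by the 10 libraries. The difference of 21.3 points in F-MTAza (SE 16.9, adjusted p = 0.296) changed sign when the same CpGs were compared, since 23 CpGs read in both averaged 37.2% in F-MTAza and 60% in PBS, 16 of them lower and none higher. Ifih1 (MDA5) was at 14.1% in Aza replicate 3, at 11.8%, 11.2% and 14.1% in F-MTAza and at 27.7%, 17.3% and 15.2% in NP-MTAza, against 30.6%, 16.3% and 14.6% in PBS. Tlr3, which senses double-stranded RNA in endosomes, had no methylated read in Aza replicate 3, in any F-MTAza library or in NP-MTAza replicate 1 (43 to 180 reads, which allow up to 1.67% to 6.98%), 1.23% and 2.53% in the other NP-MTAza libraries, and 2.08%, 4.08% and 0.860% in PBS. At Ifih1 the F-MTAza libraries lay below the PBS libraries, while NP-MTAza overlapped PBS. At Tlr3 the zeros in F-MTAza allow up to 3.70% to 6.98%, within or above the PBS range, so they cannot be placed below PBS. With each CpG counted equally, Ifih1 was called in F-MTAza (-15.7 points, adjusted p = 0.0280), against -8.16 points (adjusted p = 0.235) by reads.

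Of the signal parts, Irf9 and Stat2 encode subunits of the complex that binds the response element. The Irf9 promoter (chr14:56220408-56222908, plus strand) was at 42.6% in Aza replicate 3 (95% Wilson interval 36.1 to 49.4), at 41.4%, 36.7% and 56.6% in F-MTAza and at 28.3%, 36.0% and 41.1% in NP-MTAza, against 80.6%, 76.9% and 69.5% in PBS. No treated library reached the lowest PBS library. It fell by 30.8 points in F-MTAza (SE 5.83, adjusted p = 0.00642) and by 40.5 points in NP-MTAza (SE 5.83, adjusted p = 0.00185). The fall of 33.1 points in Aza replicate 3 (adjusted p = 0.0370) was lost when PBS replicate 1 or 2, or NP-MTAza replicate 2 or 3, was left out. Of the 46 CG of the window, 36 lie inside Rnf31. Within 500 bp of the start, F-MTAza replicate 3 and PBS replicate 2 read fewer than 3 CpGs, so the libraries did not cover the window alike.

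The Stat2 promoter (chr10:127705629-127708129, plus strand) was at 36.7% in Aza replicate 3, at 33.5%, 27.1% and 21.8% in F-MTAza and at 12.9%, 24.2% and 16.7% in NP-MTAza, against 38.9%, 87.3% and 34.6% in PBS. PBS replicate 2 stood far above the others, and it had read fewer than 3 CpGs within 500 bp of the start, where all other libraries were low. The fall of 35.6 points in NP-MTAza (SE 13, adjusted p = 0.0462) was lost without any 1 of the F-MTAza or NP-MTAza libraries. Over the 48 CpGs read in both groups the levels were 22.6% in NP-MTAza and 36.1% in PBS, a difference of -13.5 points. In F-MTAza the difference was -26.1 points (adjusted p = 0.134).

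Irf5, a transcription factor of the same family, was at 38.1% in Aza replicate 3, at 25.0%, 39.0% and 38.3% in F-MTAza and at 47.4%, 36.9% and 40% in NP-MTAza, against 66.3%, 76.2% and 45.3% in PBS. PBS replicate 3 overlapped NP-MTAza but not F-MTAza. It fell by 28.5 points in F-MTAza (SE 7.94, adjusted p = 0.0247), which was lost without PBS replicate 1, PBS replicate 2 or F-MTAza replicate 1, and the difference in NP-MTAza was -21.2 points (adjusted p = 0.0732). Over the 4 CpGs that every library had read, the adjusted p was 0.00664 in F-MTAza and 0.0194 in NP-MTAza. Ifnar1, a chain of the interferon receptor, was at 33.6% in Aza replicate 3, at 4.69%, 24.6% and 24.7% in F-MTAza and at 26.2%, 33.8% and 22.0% in NP-MTAza, against 47.9%, 46.7% and 40.4% in PBS. The treated libraries did not overlap PBS, and it fell by 27.0 points in F-MTAza (SE 5.88, adjusted p = 0.0175), lost without PBS replicate 1 or 2. The 27 CpGs read in both groups averaged 19.2% in F-MTAza and 26.2% in PBS, a difference of -6.98 points, smaller than that of the whole window, in which the libraries read different CpGs.

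Several other signal promoters were under 10% in PBS. Irf1, an early transcription factor of the response, was at 0.568% in Aza replicate 3, at 0%, 1.04% and 0.526% in F-MTAza and at 2.19%, 5.02% and 0.599% in NP-MTAza, against 0.707%, 3.17% and 0.76% in PBS. Tbk1 was at 0.675% in Aza replicate 3, at 0.397%, 5.11% and 1.81% in F-MTAza and at 0.84%, 1.06% and 0.473% in NP-MTAza, against 0.311%, 2.93% and 0.792% in PBS. These 2 had the smallest mean differences of the signal promoters, and their groups overlapped. Irf2, a repressor of the same family, averaged 0.461% ± 0.799 in F-MTAza, 2.05% ± 0.382 in NP-MTAza and 4.05% ± 1.80 in PBS (SD, n = 3 each), and its difference of -3.59 points in F-MTAza had an adjusted p of 0.0371 but was under the minimum of 10 points. Mavs averaged 5.77% ± 2.12 in F-MTAza, 4.42% ± 1.75 in NP-MTAza and 9.63% ± 6.80 in PBS. Trim25 (a ligase that activates RIG-I), Irf3 and Irf8 were not called. Trim25 averaged 8.62% ± 2.18 in F-MTAza, 8.98% ± 1.45 in NP-MTAza and 13.1% ± 2.07 in PBS, and Irf3 averaged 9.77% ± 12.4, 9.13% ± 6.59 and 14.5% ± 5.77 in the same groups. Irf8 averaged 21.7% ± 4.92 in F-MTAza, 20.2% ± 5.92 in NP-MTAza and 37.6% ± 11.8 in PBS, with no overlap between treated and PBS libraries.

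Among induced antiviral genes, Oas2 stood out. It encodes an oligoadenylate synthetase, an enzyme that answers double-stranded RNA by making the activator of RNase L. Its promoter (chr5:121199362-121201862, minus strand) was at 44.0% in Aza replicate 3 (95% Wilson interval 35.6 to 52.8), at 58.1%, 54.9% and 64.3% in F-MTAza and at 72.0%, 69.2% and 66.7% in NP-MTAza, against 84.1%, 90.0% and 91.6% in PBS. No value of 1 group overlapped another group. It fell by 29.5 points in F-MTAza (SE 3.03, adjusted p = 0.00150), by 19.3 points in NP-MTAza (SE 3.03, adjusted p = 0.00539) and by 44.6 points in Aza replicate 3 (SE 4.28, adjusted p = 0.00632). The 6 to 10 CpGs read lay from 6 to 441 bp after the gene start. Over all libraries they were 11 positions, 3 in the UTR and 7 in the coding part of an exon and 1 in an intron. Between treatments, NP-MTAza minus F-MTAza was 10.2 points (SE 3.03) and the mean of both combinations minus Aza replicate 3 was 20.2 points (SE 4.01), with adjusted p = 1 for both.

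Usp18 was at 10.3% in Aza replicate 3, at 3.36%, 10.4% and 1.63% in F-MTAza and at 12.4%, 19.7% and 11.2% in NP-MTAza, against 19.5%, 21.6% and 14% in PBS. F-MTAza lay below PBS in every library, and it fell by 13.2 points (SE 3.40, adjusted p = 0.0236), a call lost without F-MTAza replicate 1 or 3 or PBS replicate 1 or 2. Over 29 CpGs read in both groups the levels were 8.57% in F-MTAza and 11.9% in PBS. More than 500 bp upstream, where PBS averaged 48.1%, F-MTAza replicates 1 and 3 read fewer than 3 CpGs. With the window from 500 bp upstream the difference in F-MTAza was -5.55 points (adjusted p = 0.104, limma). Cxcl10, a chemokine that draws T cells, was at 4.38% in Aza replicate 3, at 1.47%, 3.45% and 1.82% in F-MTAza and at 2.65%, 0% (which allows up to 2.97%) and 1.68% in NP-MTAza, against 7.97%, 3.00% and 8.68% in PBS. F-MTAza and Aza replicate 3 overlapped PBS, NP-MTAza lay below it, and none was called. In NP-MTAza the difference was -5.11 points (adjusted p = 0.0698) by reads and -14.2 points (adjusted p = 0.0276) with each CpG counted equally, but 0.214 points over the 10 CpGs read in both groups.

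Several induced promoters were almost free of methylation before treatment. Bst2 was at 0.68% in Aza replicate 3, at 0.855%, 0.535% and 0.99% in F-MTAza and at 0%, 2.37% and 0.954% in NP-MTAza, against 0.924%, 2.13% and 0.535% in PBS. Ifit2, which binds viral RNA, was at 2.41% in Aza replicate 3, at 0.588%, 2.34% and 8.29% in F-MTAza and at 1.95%, 4.89% and 3.99% in NP-MTAza, against 3.83%, 6.15% and 0.46% in PBS. Adar, an RNA-editing deaminase, was at 0.747% in Aza replicate 3, at 0%, 1.68% and 0.866% in F-MTAza and at 1.44%, 3.14% and 1.67% in NP-MTAza, against 2.33%, 2.9% and 1.09% in PBS. No library passed 8.29% at these 3, and their groups overlapped. Samhd1, which depletes nucleotides, averaged 8.97% ± 8.67 in F-MTAza, 2.49% ± 2.77 in NP-MTAza and 6.34% ± 2.65 in PBS. These promoters had little methylation to lose at the depth of these libraries.

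The 4 tested antigen presentation promoters gave no call. Psmb8, an immunoproteasome subunit, was at 7.78% in Aza replicate 3, at 17.2%, 13.9% and 4.96% in F-MTAza and at 41.9%, 12.2% and 17.9% in NP-MTAza, against 18.5%, 22.0% and 42.4% in PBS. Tap1, a chain of the peptide transporter, was at 19.4% in Aza replicate 3, at 32.8%, 13.4% and 16.9% in F-MTAza and at 10.1%, 19% and 23.1% in NP-MTAza, against 28.8%, 21.1% and 33.3% in PBS. Both overlapped between groups, and 1 library was high in NP-MTAza and 1 in PBS at Psmb8. Psmb9, another immunoproteasome subunit, was at 0.459% in Aza replicate 3, at 3.75%, 2.6% and 0.637% in F-MTAza and at 2.06%, 3.69% and 1.43% in NP-MTAza, against 2.89%, 1.69% and 1.84% in PBS. B2m, the light chain of MHC class I, was at 0% in Aza replicate 3, at 0%, 0.651% and 1.55% in F-MTAza and at 0.563%, 2.03% and 0% in NP-MTAza, against 0%, 5.09% and 0.605% in PBS. Both lay near 0 in every group.

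Untested promoters still gave values in part of the libraries. Oasl2, an oligoadenylate synthetase-like gene, was at 48.1% in Aza replicate 3, at 67.7% and 40% in F-MTAza replicates 2 and 3 and at 59.3%, 76.1% and 54.9% in NP-MTAza, against 90.9% and 93.9% in PBS replicates 1 and 3. Over 7 CpGs read in both groups it averaged 58.9% in F-MTAza and 92.7% in PBS, all 7 lower. Oas3 averaged 20.5% in F-MTAza and 45.5% in PBS over 6 such CpGs. These are descriptions without a test. None of the 10 libraries read 3 CpGs in the promoters of Isg15 or Nlrc5.

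Members were also grouped by their level in PBS. There, 12 of the 27 promoters (44.4%) were under 10% methylated, as were 42.9% of all tested promoters, and these had a median difference of -1.10 points in F-MTAza, against -1.11 over all promoters of that class. The 7 members at 10% to 30% had medians of -8.16 points in F-MTAza and -4.10 in NP-MTAza, against -6.72 and -6.81 for all promoters of that class. For the 4 members at 30% to 60% the medians were -21.0 and -17.5 points, against -15.2 and -16.4. The 4 members over 60% in PBS (Dhx58, Irf5, Irf9 and Oas2) had medians of -30.1 points in F-MTAza and -30.9 in NP-MTAza, against -23.1 and -25.0 for all promoters of that class. With so few members this is a description, without a test.

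Distance from the start showed where that methylation lay. Each CpG counted equally, members averaged 54.6% in Aza replicate 3, 61.8% ± 7.85 in F-MTAza, 46.4% ± 7.25 in NP-MTAza and 87.8% ± 1.84 in PBS (SD, n = 3 each) between 1000 and 751 bp upstream of the start. All genes averaged 28.8%, 30.5% ± 1.41, 29.4% ± 0.317 and 45.0% ± 2.99 there. In the 250 bp before the start, members averaged 3.62% in Aza replicate 3, 4.99% ± 1.59 in F-MTAza, 3.6% ± 1.06 in NP-MTAza and 6.09% ± 0.536 in PBS, against 12.2%, 13% ± 0.389, 12.6% ± 0.579 and 18.9% ± 2.12 over all genes. The level of members was thus above that of all genes upstream and below it at the start, in all 4 groups, a contrast that was not tested. The windows of 14 members overlap another gene, so part of the upstream CpGs lie in neighbouring genes. No such count is given for all genes.

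**Figure D2:**
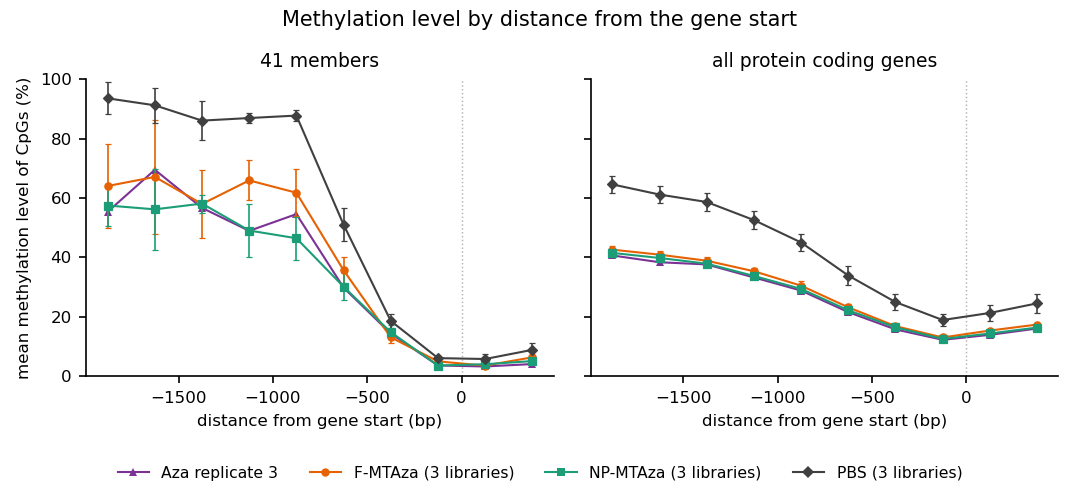
Mean methylation level of CpGs (percent, each CpG weighted equally) in bins of 250 bp by distance from the gene start (bp), for the 41 members and for all protein coding genes, with Aza replicate 3 as single values and the mean ± SD of 3 libraries for F-MTAza, NP-MTAza and PBS. Between 1000 and 751 bp upstream members were at 61.8% in F-MTAza, 46.4% in NP-MTAza and 87.8% in PBS, and in the 250 bp before the start every group was between 3.6% and 6.09%.

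Each window was also split at 500 bp upstream, gene by gene. Near the start, from 500 bp upstream to 500 bp downstream, 22 members had a value in every library. Their median level was 0.969% in Aza replicate 3, 1.85% in F-MTAza, 1.81% in NP-MTAza and 2.04% in PBS, and 15 of the 22 were under 10% in PBS. Of these 22, Oas2 was the 1 member over 60% in PBS. Farther upstream, 5 members (Dhx58, Irf8, Irf9, Stat2 and Tap1) had a value in every library, all over 60% in PBS. Their medians were 59.6% in Aza replicate 3, 61.6% in F-MTAza, 54.1% in NP-MTAza and 90.2% in PBS. The windows of all 5 overlap another gene (Kat2a, Gm20388, Rnf31, Apof and Psmb9 in that order). These far levels may thus belong to the exons and introns of neighbouring genes, which was not tested. Other far zones, not read in every library, varied in PBS. Some were as high, such as that of Ddx58, at 100% and 93.8% in PBS replicates 1 and 2. Oasl2 was at 90.9% and 93.9% there in PBS replicates 1 and 3. Some were lower. That of Psmb9 was at 2.17% in Aza replicate 3, 6.87% in NP-MTAza and 4.40% in PBS, that of Usp18 at 22.3%, 24.8% and 48.1% in the same groups, and that of Cxcl10 at 17.7% and 9.14% in the 2 PBS libraries that read it. At Tap1 the far zone was at 59.6% in Aza replicate 3, 54.5% in F-MTAza, 54.1% in NP-MTAza and 85.0% in PBS, while its near zone did not exceed 1.40% as a group mean. At Stat2 the far zone was at 72.3% in Aza replicate 3, 76.8% in F-MTAza, 57.8% in NP-MTAza and 98.6% in PBS, and the near zone was at 1.75% and 3.88% in the 2 PBS libraries that read it. When the promoter was redefined to start 500 bp upstream, 3 of 22 members (Zbp1, Irf5 and Oas2) were lower in F-MTAza, and Oas2 alone was lower in NP-MTAza and in Aza replicate 3. Of all 9988 promoters tested in this window, 16.9%, 19.4% and 8.53% were lower in these comparisons.

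**Figure D3:**
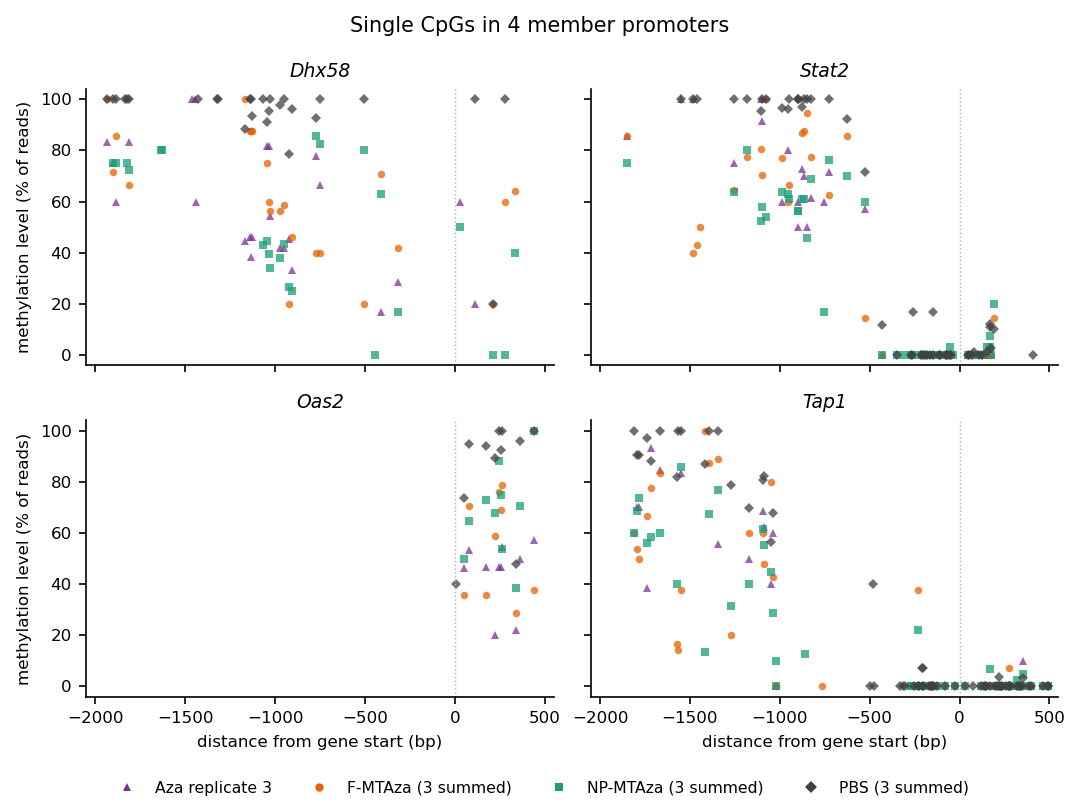
Methylation level (percent of reads, 5 or more reads) of single CpGs in the promoters of Dhx58, Stat2, Oas2 and Tap1 by distance from the gene start (bp), for Aza replicate 3 and for the 3 summed libraries each of F-MTAza, NP-MTAza and PBS. Stat2 and Tap1 show methylated CpGs far upstream, lower in the treated groups than in PBS, and CpGs mostly at 0 in all groups around the start. The CpGs read at Oas2 lie after the start and were at 88.6% in PBS on average over libraries. The windows of Dhx58, Stat2 and Tap1 overlap Kat2a, Apof and Psmb9.

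Single CpGs were tested next, at positions with 5 or more reads in each of the 6 libraries compared, and called at a q under 0.01 with a change of 35 points or more. F-MTAza was lower than PBS at 118 of 509 member CpGs, against 22% of 511951 CpGs genome-wide, and NP-MTAza at 213 of 819, against 25.9% of 814539. No member CpG was called higher, as were 0.00449% and 0.00479% genome-wide. In promoters the calls were 4 of 127 CpGs (3.15%) in F-MTAza, against 5.74% of promoter CpGs of all genes, and 18 of 285 (6.32%) in NP-MTAza, against 7.05%. In bodies they were 114 of 382 (29.8%) in F-MTAza, against 26.4%, and 195 of 534 (36.5%) in NP-MTAza, against 31.1%. This test sums reads over libraries, and a fit in which libraries may vary beyond read sampling called 0 member CpGs and 0 CpGs genome-wide in both comparisons, with 228 of 509 and 352 of 819 member CpGs lower at an unadjusted p under 0.05, against 201334 of 511951 and 349921 of 814539 genome-wide.

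The promoter calls were far from the starts. The 22 calls fell on 21 CpGs of 7 members, of which 20 lay more than 500 bp upstream, 18 lay inside another gene and 3 lay between genes. A call needed a loss of 35 points, and member zones near the start had a median of 2.04% in PBS. A zone at that level cannot lose 35 points, so these positions do not show where treatment acted most. The Irf8 calls lay in an intron of Gm20388, which covers all 97 CG of that window. No such shares are given for all tested promoter CpGs. At Dhx58 in NP-MTAza, 6 called CpGs between positions -921 and -1044 from the start lay in the coding and UTR parts of an exon of Kat2a. At Stat2 in NP-MTAza, 5 called CpGs between positions -867 and -1102 lay in a coding exon of Apof, an apolipoprotein gene. Neighbouring CpGs share reads and are not independent.

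Among the calls in which all treated libraries lay below all PBS libraries, the following 6 CpGs had the largest mean difference, and their surroundings are shown so that each can be found again. The called CG is in capitals, on the strand of the gene.
Irf8 (intron), chr8:123268252-123268279, plus strand: cagttagacgggcCGgcagtggggacat
Stat2 (coding exon), chr10:127713918-127713945, plus strand: acagcataacttgCGaaaattcagccgg
Dhx58 (upstream, coding exon of Kat2a), chr11:100566601-100566628, minus strand: aatactgtcgctgCGccagtgccctgga
Rsad2 (intron), chr12:27136816-27136843, minus strand: gccaaggtactccCGgaaggaactgctt
Usp18 (coding exon), chr6:121218629-121218656, plus strand: ctgtgcctacatcCGgaatcccgtggat
Ddx58 (coding exon), chr4:40164475-40164502, minus strand: aaaacagagaattCGgcacccagaaata

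At the Dhx58 CpG the level was 40%, 41.7% and 18.2% in NP-MTAza and 100% in each PBS library, over 11 to 15 reads in NP-MTAza and 8 to 20 in PBS. At the Rsad2 CpG, in the gene of the antiviral enzyme viperin, it was 50.0%, 21.4% and 43.8% in NP-MTAza and 100% in each PBS library, over 10 to 16 and 19 to 32 reads. These 2 had 8 reads or more in every library. At the Stat2 CpG it was 20%, 16.7% and 50.0% in F-MTAza and 93.8%, 100% and 94.1% in PBS. At the Irf8 CpG it was 16.7%, 64.3% and 0 of 6 reads in NP-MTAza and 100%, 83.3% and 100% in PBS. At the Ddx58 CpG it was 33.3%, 25.0% and 40% in NP-MTAza and 87.5%, 100% and 94.7% in PBS. The Usp18 CpG was called in both comparisons, with 0, 60% and 66.7% in F-MTAza and 0, 60% and 16.7% in NP-MTAza, against 100%, 85.7% and 100% in PBS, on 5 or 6 reads in treated libraries. Levels on so few reads move in large steps.

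Gene bodies lost methylation in nearly every member. F-MTAza was lower than PBS at 28 of 30 tested bodies (93.3%), against 84.8% of 15476 bodies, NP-MTAza at 27 (90.0%), against 87.2%, and Aza replicate 3 at 26 (86.7%), against 80.2%. No member body was called higher, as were 0.103%, 0.00646% and 0.00646% of all bodies. Median differences were -26.3 points in F-MTAza, -27.7 in NP-MTAza and -28.6 in Aza replicate 3, against -25.8, -27.3 and -28.4 over all bodies, so the members lay close to the genome as a whole. Over CpGs read in both groups, members lower by 10 points or more numbered 29 of 30 in F-MTAza, 30 in NP-MTAza and 28 in Aza replicate 3. None was higher by that much. This count was not made for all bodies, so it does not set the members apart.

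**Figure D4:**
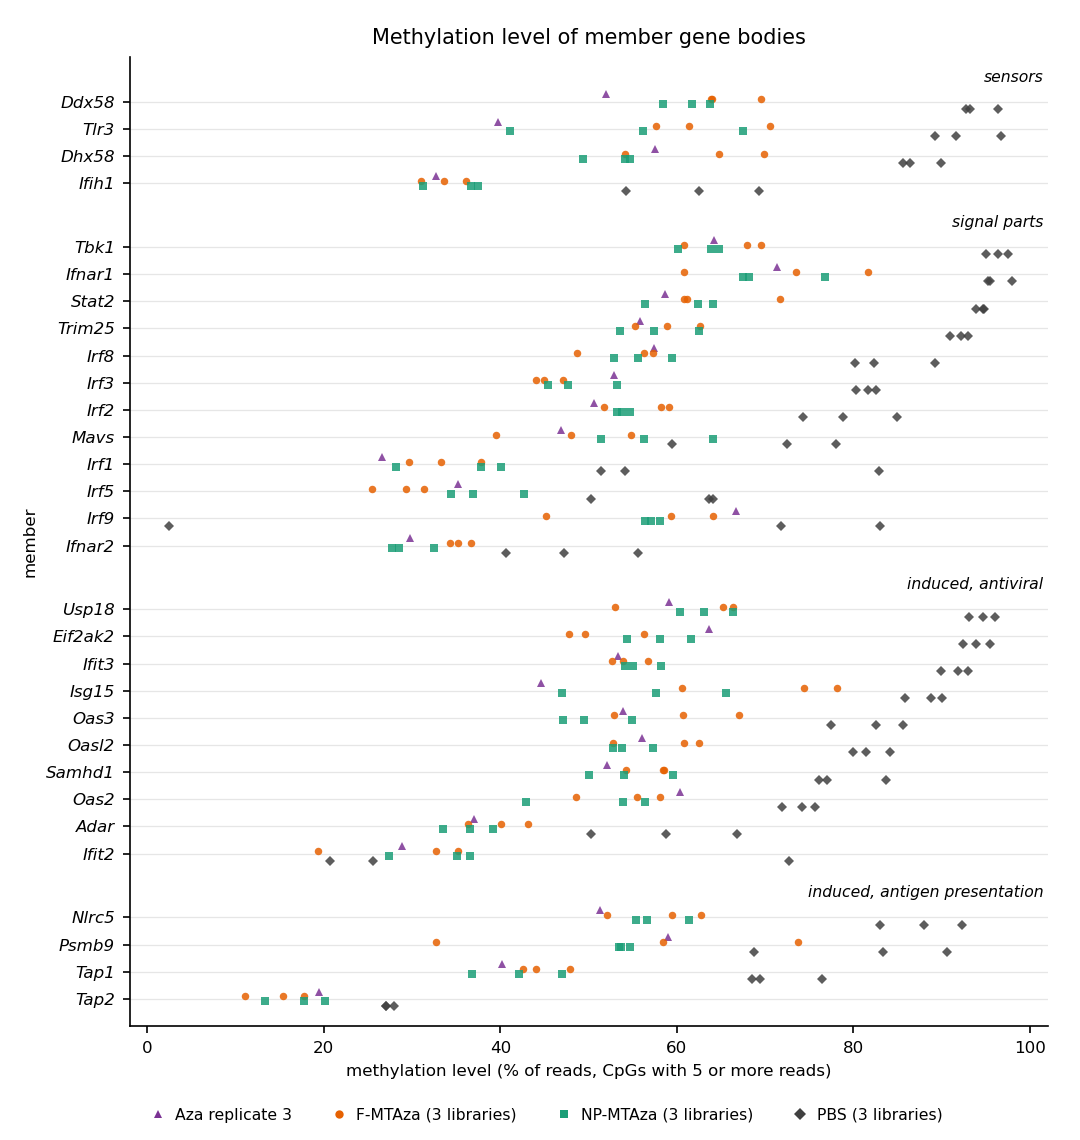
Methylation level (percent of reads) of each tested member gene body in the 10 libraries, grouped by role, with 1 point per library (triangle Aza replicate 3, circles F-MTAza, squares NP-MTAza, diamonds PBS). Ddx58 lies between 52.0% and 69.5% in treated libraries and between 92.7% and 96.4% in PBS, Tap2 is low in all groups (11.1% to 27.9%), and 1 PBS library of Irf9 is at 2.50%.

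The 4 sensor bodies tested fell in all 3 comparisons with PBS. Ddx58 was at 52.0% in Aza replicate 3, at 69.5%, 63.8% and 63.9% in F-MTAza and at 58.4%, 63.7% and 61.7% in NP-MTAza, against 92.7%, 93.2% and 96.4% in PBS. Tlr3, whose promoter had almost no methylation, was at 39.8% in Aza replicate 3, at 70.5%, 57.7% and 61.3% in F-MTAza and at 67.5%, 56.2% and 41.1% in NP-MTAza, against 91.7%, 96.7% and 89.2% in PBS. At both, the PBS libraries were at 89.2% or more. Dhx58 was at 57.5% in Aza replicate 3, at 64.8%, 54.1% and 69.9% in F-MTAza and at 54.2%, 49.3% and 54.7% in NP-MTAza, against 85.6%, 90% and 86.4% in PBS. Ifih1, the lowest of the 4, was at 32.7% in Aza replicate 3, at 33.7%, 36.1% and 31% in F-MTAza and at 36.6%, 37.5% and 31.2% in NP-MTAza, against 54.3%, 62.5% and 69.3% in PBS. Treated and PBS libraries did not overlap at any of the 4. The share of all bodies without overlap was not counted, so lack of overlap, here or at the bodies below, does not set members apart. Ddx58 fell by 28.4 points in F-MTAza (SE 2.73, adjusted p = 1.81e-05), and it fell by 32.9 points in NP-MTAza (SE 2.73, adjusted p = 1.00e-05).

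Of 12 signal bodies, 11 fell in F-MTAza, 10 in NP-MTAza and 11 in Aza replicate 3. Irf3, the factor that TBK1 activates, was at 52.9% in Aza replicate 3, at 44.1%, 47.1% and 44.9% in F-MTAza and at 53.2%, 47.7% and 45.5% in NP-MTAza, against 81.6%, 80.2% and 82.5% in PBS. It fell by 36.1 points in F-MTAza (SE 2.68, adjusted p = 1.23e-05) and by 32.7 points in NP-MTAza (adjusted p = 1.20e-05). Trim25 was at 55.8% in Aza replicate 3, at 55.3%, 58.9% and 62.6% in F-MTAza and at 62.5%, 57.5% and 53.6% in NP-MTAza, against 92.2%, 92.9% and 90.9% in PBS. Tbk1 was at 64.2% in Aza replicate 3, at 69.5%, 60.8% and 68% in F-MTAza and at 63.9%, 64.8% and 60.2% in NP-MTAza, against 96.3%, 97.6% and 95% in PBS. Stat2 was at 58.6% in Aza replicate 3, at 60.8%, 61.2% and 71.7% in F-MTAza and at 56.3%, 64.1% and 62.4% in NP-MTAza, against 94.7%, 94.8% and 93.8% in PBS. In all 3 the PBS libraries, at 90.9% or more, lay above the treated ones. The Tbk1 body thus fell by 30.2 points in F-MTAza while its promoter stayed near 0. Ifnar2, the second chain of the receptor, was at 29.7% in Aza replicate 3, at 36.7%, 35.2% and 34.3% in F-MTAza and at 28.5%, 27.8% and 32.5% in NP-MTAza, against 47.3%, 55.6% and 40.6% in PBS. It fell least among the signal bodies called, by 12.5 points in F-MTAza (adjusted p = 0.0147), a call lost without PBS replicate 2, and by 18.2 points in NP-MTAza. Irf9 was not called, at 66.7% in Aza replicate 3, at 59.4%, 45.2% and 64.1% in F-MTAza and at 58.0%, 57.0% and 56.3% in NP-MTAza, against 71.8%, 2.50% and 83.0% in PBS. Without PBS replicate 2 its differences were -21.2 points in F-MTAza (adjusted p = 0.00926) and -20.3 points in NP-MTAza (adjusted p = 0.0106), so 1 library decided this result. Mavs fell in F-MTAza and Aza replicate 3 and was not called in NP-MTAza (-12.7 points, adjusted p = 0.0626).

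Induced antiviral bodies fell at 9 of 10 members in each comparison with PBS. Eif2ak2 (PKR, a kinase that halts translation on double-stranded RNA) had the largest difference of all members in F-MTAza. It was at 63.7% in Aza replicate 3, at 49.6%, 47.8% and 56.3% in F-MTAza and at 54.3%, 61.6% and 58.1% in NP-MTAza, against 93.9%, 95.5% and 92.4% in PBS. It fell by 42.7 points in F-MTAza (SE 3.11, adjusted p = 1.10e-05), and it fell by 35.9 points in NP-MTAza (SE 3.11, adjusted p = 9.35e-06). Ifit3 was at 53.4% in Aza replicate 3, at 56.8%, 53.8% and 52.6% in F-MTAza and at 55.0%, 58.3% and 54.1% in NP-MTAza, against 91.9%, 93.0% and 89.9% in PBS, a fall of 37.2 points in F-MTAza (SE 2.44, adjusted p = 1.10e-05). Usp18 was at 59.1% in Aza replicate 3, at 53%, 66.4% and 65.3% in F-MTAza and at 66.4%, 63.1% and 60.4% in NP-MTAza, against 93.1%, 96% and 94.6% in PBS, and it fell by 33 points in F-MTAza. Oas3, another oligoadenylate synthetase, was at 53.9% in Aza replicate 3, at 67.1%, 52.9% and 60.7% in F-MTAza and at 49.4%, 47.1% and 54.9% in NP-MTAza, against 77.4%, 82.5% and 85.6% in PBS. At these bodies the PBS libraries were the highest. Isg15 was read at only 4 or 5 CpGs and fell by 17.2 points in F-MTAza and 31.5 points in NP-MTAza. Adar was at 37% in Aza replicate 3, at 40.1%, 36.3% and 43.1% in F-MTAza and at 33.5%, 36.5% and 39.2% in NP-MTAza, against 50.3%, 66.8% and 58.8% in PBS. It fell by 18.8 points in F-MTAza (SE 4.22, adjusted p = 0.00328). Ifit2 was not called, at 28.9% in Aza replicate 3, at 35.2%, 32.7% and 19.3% in F-MTAza and at 35.1%, 27.4% and 36.6% in NP-MTAza, against 25.6%, 20.7% and 72.7% in PBS, where PBS replicate 3 stood apart (-10.6 points in F-MTAza, adjusted p = 0.438). Over CpGs read in both groups it was lower by 10 points or more in both combinations, at 37.3% in F-MTAza and 61.3% in PBS over 31 CpGs, and at 37.4% in NP-MTAza and 57.2% in PBS over 27.

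The 4 tested antigen presentation bodies fell in both combinations, and 2 of them in Aza replicate 3. Nlrc5, the activator of MHC class I genes, was at 51.3% in Aza replicate 3, at 59.4%, 52.1% and 62.8% in F-MTAza and at 61.4%, 56.7% and 55.4% in NP-MTAza, against 88%, 92.3% and 83.1% in PBS. Tap1 was at 40.2% in Aza replicate 3, at 47.9%, 44% and 42.5% in F-MTAza and at 42.2%, 46.9% and 36.8% in NP-MTAza, against 69.5%, 76.5% and 68.5% in PBS. Neither overlapped between treated and PBS libraries. Psmb9 was at 59% in Aza replicate 3, at 73.7%, 58.5% and 32.7% in F-MTAza and at 53.4%, 54.7% and 53.7% in NP-MTAza, against 68.7%, 90.6% and 83.4% in PBS. F-MTAza replicate 1 overlapped PBS, and its calls were lost without PBS replicate 2 or 3, and in F-MTAza also without F-MTAza replicate 3. Tap2, the partner of Tap1, was already low, at 19.5% in Aza replicate 3, at 11.1%, 17.7% and 15.4% in F-MTAza and at 13.3%, 17.7% and 20.2% in NP-MTAza, against 27.0%, 27.0% and 27.9% in PBS. It fell by 12.6 points in F-MTAza (adjusted p = 0.00270) and by 10.2 points in NP-MTAza (adjusted p = 0.00879), a call lost without NP-MTAza replicate 1 or PBS replicate 3.

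Summed over members of a role, the 3 roles can be set side by side. Sensor promoters were at 20.5% in Aza replicate 3, 27.8% ± 9.42 in F-MTAza, 21.3% ± 2.89 in NP-MTAza and 33.9% ± 12.6 in PBS (SD, n = 3 each). Signal promoters were at 12.8%, 13.3% ± 0.238, 13% ± 0.883 and 22.1% ± 4.08 in the same groups, and induced promoters at 7.63%, 10.4% ± 1.15, 9.70% ± 2.15 and 13.4% ± 0.549. Sensors were highest in every group, but the order turned over CpGs read in all 10 libraries. Only 15 sensor promoter CpGs remained there, against 43 to 117 per library before, and none of Dhx58 or Ddx58. Sensors were then at 7.48%, 9.16%, 11.9% and 16.5% and signal parts at 16.4%, 18.3%, 18.5% and 22.5% in the same groups. Over these shared CpGs the sensor difference in NP-MTAza was -4.56 points, against -12.6 over all CpGs, but the sensors read were not the same. Bodies were at 47.1%, 54.9% ± 1.64, 50.8% ± 0.4 and 84.0% ± 3.00 for sensors, at 51.9%, 55.2% ± 3.14, 53.7% ± 1.08 and 82.3% ± 4.53 for signal parts, and at 46.6%, 47.9% ± 0.492, 46.3% ± 1.11 and 73.3% ± 3.38 for induced genes. Called promoters in F-MTAza numbered 2 of 5 sensors, 3 of 11 signal parts and 2 of 11 induced genes, too few to set the roles apart, and differences between roles were not tested.

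The deliveries and the added drugs were compared directly. Between NP-MTAza and F-MTAza, and between both combinations and Aza replicate 3, limma called 0 of 27 member promoters and 0 of 30 member bodies, and also 0% of all promoters and bodies. At an unadjusted p under 0.05 there were 2 and 1 member promoters, against 551 and 272 of 11640, and 2 and 2 member bodies, against 847 and 538 of 15476. The SE of a member promoter difference between NP-MTAza and F-MTAza ranged from 1.10 to 16.9 points, the largest at Ddx58.

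Further genes of the pathway, 50 listed and 49 found in the annotation, were treated alike. Of their 21 tested promoters, 5 were lower in F-MTAza, 3 in NP-MTAza and 1 in Aza replicate 3, and none was higher, with median differences of -4.73, -6.16 and -4.51 points. Over all promoters, 23%, 25% and 11.2% were lower, with medians of -5.12, -5.75 and -6.10 points. E330016A19Rik, listed in RefSeq as a synonym of Cgas, the sensor of cytosolic DNA, was at 40.6% in F-MTAza and 71.6% in PBS (a fall of 31.0 points, adjusted p = 0.00292) and at 46.4% in NP-MTAza. Parp14, an interferon-induced ADP-ribosyltransferase, was at 42.2% in F-MTAza, 38.8% in NP-MTAza and 65.6% in PBS, and was called in all 3 comparisons. Of their 31 tested bodies, 22 were lower in F-MTAza, 24 in NP-MTAza and 19 in Aza replicate 3, against 84.8%, 87.2% and 80.2% of all bodies. These shares were below those of all bodies, a difference that was not tested.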

How the data were processed

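Methylation was measured by RRBS in 12 libraries of PKD1-Het cells, 3 per group. The authors used Trim Galore 0.4.4 for trimming and Bismark 0.20.1 with Bowtie2 for alignment to mm9. They merged the strands of each CpG and deposited, per library, methylated over total reads as a text ratio and the percent methylated, rounded down, for CpGs with 5 or more reads. No removal of PCR duplicates is stated, so intervals and zero limits cover counting error only.

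The deposited read counts were summed over the promoter or body of every protein coding gene of GENCODE M1 (Python 3.11.15). Levels were arcsine-square-root transformed and fitted with limma 3.58.1 in R 4.3.3 over 10 libraries in 1 model, without weights for depth, with p-values adjusted by Benjamini-Hochberg over all parts of a kind. SEs are on the percent scale. Parts needed 3 CpGs in each of the 10 libraries. The SE and p of Aza replicate 3 take their spread from the other groups. Single CpGs were tested with a likelihood ratio of 2 binomial fits (1 level, or 1 per group) to the summed reads, adjusted over all CpGs tested. The scripts were tested on simulated data.

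Aza replicates 1 and 2 were left out. Members and lists were chosen with earlier results of these data known. Values in every library are given for each sensor and, per other role and part, for up to 4 members with the largest and 2 with the smallest mean difference of the combinations from PBS, and for up to 6 separated CpGs. Other members are described by counts or means. Same-numbered replicates did not deviate together (r between -0.0813 and 0.0549 in promoters, -0.123 and 0.0275 in bodies), so that no pairing was used. Alternatives were the scale, the test, the CpGs and windows used, the minima and leaving out each library. A result that names an item withheld for evaluation is not reported here.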

Additional observations from a re-analysis of the deposited data

Results flagged for a closer look

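The files of Aza replicates 1 and 2, which no comparison used, list methylated reads at promoters that were nearly free of them in the other libraries. Across 10127 promoters the levels of Aza replicate 1 correlated with those of the other 10 libraries at r between -0.00706 and 0.00276, those of Aza replicate 2 at r between -0.0168 and -0.00667, and the 2 with each other at r = 0.0193. Whether the values belong to the promoters they are listed at was not tested. Summed over the 12 member promoters under 10% in PBS, the level was 50.7% in Aza replicate 1 (842 of 1662 reads, 95% Wilson interval 48.3 to 53.1) and 42.9% in Aza replicate 2 (879 of 2051 reads, 40.7 to 45.0). Over the same promoters it was 1.61% in Aza replicate 3, between 0.883% and 3.49% in F-MTAza, between 1.45% and 3.19% in NP-MTAza and between 1.76% and 4.71% in PBS. The levels over all reads of Aza replicates 1 and 2, 45.7% and 46.7%, were close to the 44.9% of replicate 3. Both files also held CpGs listed more than once (35321 and 34667 extra rows), whose reads were summed, and replicate 3 held none. The cause was not tested.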

How the results depend on the processing

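The 123 differences of named members were refitted under 2199 alternatives in all. Of these, 2099 kept their direction and side of the threshold (or moved by less than the replicate spread), 72 lost the call, 10 gained it, 16 moved and 2 reversed. The calls at the promoters of Dhx58, Irf9 and Oas2 in F-MTAza and NP-MTAza held with each library left out in turn. The cause of the changes below was not tested unless fewer members or libraries entered.

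Of promoters called lower in F-MTAza (7 of 27), 4 were called by quasi-binomial regression, 3 of 14 with CpGs read in all 10 libraries, 1 of 6 with CpGs of 10 or more reads, 0 of 23 with Aza replicates 1 and 2 included (0 of 10127 promoters in all) and 3 of 22 with a window from 500 bp upstream, an alternative chosen after seeing the data. In NP-MTAza, 4 of 27 became 1 of 14 (Irf5, not among the 4, while Oas2 was lost at -14.7 points, adjusted p = 0.0700), 1 of 6, 0 of 23 and 1 of 22 under the last 4 of these, and 2 of 25 with a window from 1000 bp upstream. In Aza replicate 3 (3 of 27) they were 0 of 6 with 10 or more reads and 1 of 22 from 500 bp upstream. With the replicate number as a replicate block, Aza replicate 3 had 1 call, Oas2 (457 in place of 1308 promoters in all), with Dhx58 at an adjusted p of 0.0546 and Irf9 at 0.0772, and F-MTAza and NP-MTAza kept 7 and 4. Both combinations against Aza gave 9 of 23 promoters with Aza replicates 1 and 2 included (4776 of 10127), against 0.

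Member CpGs called lower in F-MTAza and NP-MTAza numbered 0 and 0 with extra spread allowed, 30 of 130 and 88 of 297 with 10 or more reads, and 248 and 385 at a minimum of 20 points. Summed by role, the promoter difference of signal parts was -4.17 points in F-MTAza and -3.96 in NP-MTAza over CpGs read in all 10 libraries, and 11.6 points in Aza with replicates 1 and 2. That of induced genes was -5.07 points in Aza replicate 3 over shared CpGs, -7.72 with each CpG equal and 21.4 with replicates 1 and 2, and -4.82 in F-MTAza with each CpG equal. Sensor bodies were at -43.8 points in Aza with replicates 1 and 2.

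Leaving out 1 library gave 3 to 7 promoters in F-MTAza, 3 to 6 in NP-MTAza and 2 to 4 in Aza replicate 3. The Irf9 body ranged from -21.2 to 19 points in F-MTAza and from -20.3 to 19.97 points in NP-MTAza, with PBS replicate 2 or 3 left out. Depth (a median of 7 to 9 reads per CpG) limits single CpGs most, and 14 member promoters could not be tested.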
